A study of Rattus norvegicus with 8 samples.

Results

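The histone deacetylases and sirtuins described here are 9 genes for which 10 probes of a rat array are named: Hdac1, Hdac2, Hdac3, Hdac4 (2 probes), Hdac5, Hdac7, Hdac11, Sirt1 and Sirt2. Unlike probes of the genes around them, 1 Hdac4 probe and the Hdac5 probe are listed on the strand opposite to their gene. Whether these measure the mRNA of that gene was not tested. The probes were taken by gene name from the 15207 that are not controls, with the older name Hdac7a read as Hdac7, and each probe was kept apart. Of the 10 listed genes, Hdac6 matched no probe by name and was not analysed here. RNA of whole hippocampi from 2-month-old rats was measured in 4 control samples and 4 samples called PNFLX. As pups, the PNFLX animals had received 10 mg/kg of fluoxetine, an antidepressant that blocks the serotonin transporter, and the controls its vehicle, sucrose in solution at 5%, both starting on postnatal day 2 and ending on day 21 per the treatment protocol; the sample descriptions instead put the last day at 21 to 24 in controls and at 25 to 28 in PNFLX, 1 day apart from sample to sample, so as described every PNFLX sample was treated longer than every control. The labels name no strain or sex, and they do not say that each sample is a separate animal or whether animals were pooled, so p-values measure the spread between these samples, which may be technical.

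Histone deacetylases remove acetyl groups from lysines of histones and other proteins, which generally goes with more compact chromatin and lower transcription. Class I enzymes (Hdac1, Hdac2, Hdac3) sit in nuclear corepressor complexes, class IIa enzymes (Hdac4, Hdac5, Hdac7) move between nucleus and cytoplasm when calcium-dependent kinases phosphorylate them, and Hdac11 is the single class IV enzyme. Sirtuins use NAD as a cosubstrate and so tie deacetylation to metabolism; in the hippocampus, several of these enzymes, Hdac2 and Sirt1 among them, have been linked to memory.

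A value below is the log2 of a spot's processed signal minus the log2 of that array's 75th percentile, so 0 is a spot as bright as that percentile. A difference is the PNFLX mean minus the control mean on this scale, and adjusted p-values are those of limma over 11600 probes, with a threshold of 0.05. The 75th percentile was 706, 880, 764 and 654 in controls 1 to 4 and 923, 941, 873 and 933 in PNFLX 1 to 4. Between 70.5% and 77.9% of probes were well above background on the 8 arrays. Controls filled one slide row and PNFLX samples the other, and this position and the treatment cannot be told apart. Differences scattered more in the outermost spot rows than in the middle ones. Their median was 0.75 in rows 1 to 5 and -0.79 in rows 188 to 192, against -0.05 in rows 21 to 172. Their scaled median absolute deviation was 0.93, 1.19 and 0.29 in the same order. No deacetylase or sirtuin probe of the 10 lay in the 5 outermost rows at either end of the 192. The rows between these zones, which hold 1 Hdac4 probe (row 14) and the Hdac7 probe (row 174), were not summarized. Neuronal markers were present (8 of 12 had a probe and all 8 were well above background on at least 4 arrays). Among other cell types, choroid plexus markers (4 of 6 measured) averaged 0.51 on control 4 against -4.56 to -1.81 on the other arrays. Of 6 meningeal and fibroblast markers 5 were higher in PNFLX (median 0.41, 0 called). They averaged 0.90 on PNFLX 1 against -0.88 to 0.09 on the other arrays. The 4 blood markers measured were all higher (median 0.27, 0 called). The part of these cell types in the values below was not tested.

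All 10 probes were well above background on 8 of 8 arrays, and none was saturated. None passed the threshold (0 of 10, against 0.672% of all probes tested, 0.371% higher and 0.302% lower in PNFLX), and 2 had an unadjusted p under 0.05, against 12.5% of all probes. These 2, one of the Hdac4 probes and the Sirt1 probe, were higher in PNFLX by 1.05 and 0.95, and they were also the 2 whose groups did not overlap, against 10.7% of all probes (4.33% with PNFLX higher and 6.41% with PNFLX lower). The other 8 differed by between -0.25 and 0.15. In all, 3 probes were higher and 7 lower in PNFLX, with a median of -0.13 against -0.03 over all probes, of which 45.5% were higher. All 7 lower probes turned higher when the arrays were not scaled to each other, a setting that shifts the median of all probes by 0.30, so the sign of a smaller difference here and below can depend on the scaling.

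**Figure D1:**
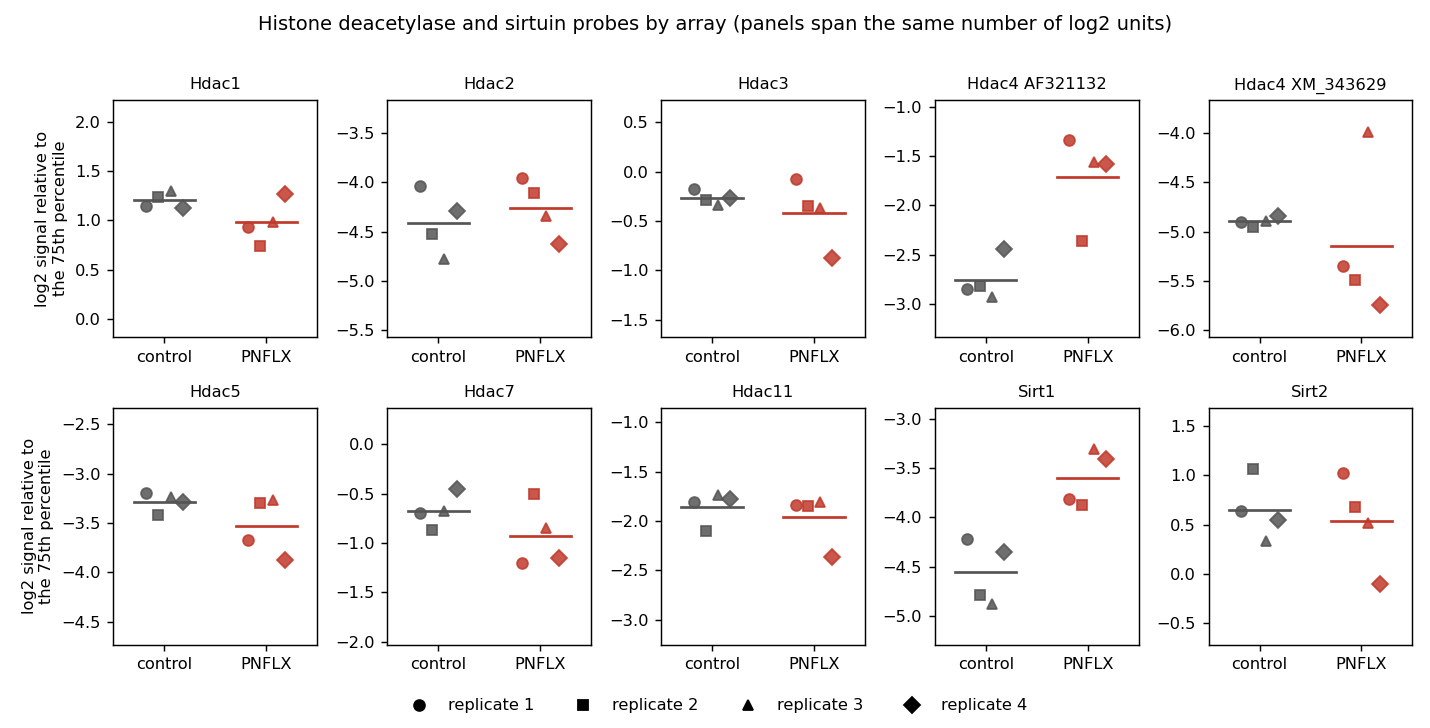
Values of the 10 probes on each of the 8 arrays, as log2 signal relative to the array's 75th percentile, with 1 symbol per replicate number and a line at each group's mean of 4. The groups stand apart for Hdac4 AF321132 (-2.93 to -2.44 in controls, -2.36 to -1.34 in PNFLX) and for Sirt1 (-4.87 to -4.22, and -3.88 to -3.31), and overlap for the other 8 probes.

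Of the class I enzymes, Hdac1 shares the Sin3, NuRD and CoREST complexes with its close relative Hdac2. The Hdac1 probe (chr5:148683965-148684326 on rn4) read 1.15, 1.24, 1.29 and 1.12 in controls 1 to 4 and 0.93, 0.74, 0.99 and 1.27 in PNFLX 1 to 4. PNFLX 1, 2 and 3 lay below every control and PNFLX 4 within the control range. The difference was -0.22 (SE 0.14, n = 4 per group, 95% interval -0.55 to 0.11, adjusted p = 0.562 by limma). The median difference of all probes in its spot row was -0.20. Over the 10 probes this row median ran from -0.20 for Hdac1 to 0.13 for Hdac7, with -0.17 for Hdac4 XM_343629 and -0.13 for Hdac5. The part of the spot row in these differences was not tested. The RefSeq gene table holds 18 Hdac1 pseudogene entries, and whether their transcripts bind this probe was not tested.

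Hdac2 is the class I enzyme most often tied to the repression of memory genes. Its probe (chr20:41194007-41194066) gave signals of only 27.8 to 59.5, with values of -4.04, -4.53, -4.78 and -4.29 in controls and -3.96, -4.11, -4.34 and -4.63 in PNFLX. The groups overlapped almost fully, and the difference was 0.15 (SE 0.21, 95% interval -0.33 to 0.63, limma adjusted p = 0.790). Under another background correction (normexp, which moved the median of all probes to -0.38) it was -0.74. That setting starts from raw spot and background signals, without the detrending of the processed ones. It adds an offset of 50, which is as large as the signals of dim probes such as this one. Among brighter probes, Hdac7 (signals of 401 to 667) moved from -0.25 to -0.74 and Hdac3 (509 to 875) from -0.15 to -0.26. Why the Hdac2 value moved was not tested.

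Hdac3 is the catalytic subunit of the NCoR and SMRT corepressors. Its probe (chr18:30888509-30888817) read -0.18, -0.29, -0.34 and -0.27 in controls and -0.08, -0.35, -0.37 and -0.87 in PNFLX. PNFLX 4 was the lowest of the 8 arrays and PNFLX 1 the highest. The difference of -0.15 (SE 0.18, 95% interval -0.56 to 0.26, limma adjusted p = 0.752) became 0.00 without PNFLX 4. For each class I enzyme the interval left out a 2-fold change in either direction.

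Of the class IIa enzymes, Hdac4 is retained in the cytoplasm of neurons at rest and represses MEF2-driven transcription once in the nucleus. It had 2 probes, AF321132 and XM_343629, which lie on chromosome 9 of rn4 with 1 base between them. Their group differences had opposite signs as reported here, though the interval of the XM_343629 probe spanned 0. Both were above 0 without scaling (1.35 and 0.05) and after row and column medians were subtracted (0.93 and 0.23). Their letters are shown because the 2 probes are listed on opposite strands, with CAG in capitals in the probe read along the gene and its reverse complement CTG in capitals in the other:
Hdac4 AF321132 probe: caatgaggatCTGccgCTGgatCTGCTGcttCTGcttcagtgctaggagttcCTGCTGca
Hdac4 AF321132 probe, reverse complement: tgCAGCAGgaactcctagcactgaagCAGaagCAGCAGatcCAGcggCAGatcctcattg
Hdac4 XM_343629 probe: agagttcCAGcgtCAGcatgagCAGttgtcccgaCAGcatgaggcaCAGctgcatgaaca

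The AF321132 probe (spot row 14, chr9:91447691-91447750, listed on the plus strand) holds 7 CTG and 1 CAG in its 60 bases. The XM_343629 probe (spot row 41, chr9:91447630-91447689, listed on the minus strand) holds 5 CAG and 1 CTG. CAG is a glutamine codon, and the N-terminal part of Hdac4 is known for its glutamine-rich stretch. Of all 15207 probes, 132 (0.868%) held at least 5 CAG and 131 (0.861%) at least 5 CTG, counted on the probe's own strand, where neither motif can overlap itself. Joined across the missing base and read along the gene, the 121-base stretch had 1 reading frame without a stop codon, with 2, 3 and 0 stops in the 3 frames. The opposite strand had 1 stop in each frame.

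The RefSeq table (GRCr8, used for strand only) puts Hdac4 on the minus strand, so the XM_343629 probe runs along the gene and the AF321132 probe runs opposite to it. All 45 probes of other genes within 2 Mb with a strand in the table are listed on their gene's strand, so the files' listing and the table run the same way there. Labelled cRNA made from oligo-dT primed cDNA is complementary to the mRNA, and a probe with the mRNA's letters is the one that pairs with it. Of 11382 probes compared, 95.6% are listed on their gene's strand, 96.5% of those from RefSeq accessions and 81.5% of those from GenBank accessions, of which AF321132 is one. What the AF321132 probe bound, and so whether its values are those of Hdac4 mRNA, was not tested.

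The AF321132 probe read -2.85, -2.82, -2.93 and -2.44 in controls 1 to 4. In PNFLX 1 to 4 it read -1.34, -2.36, -1.56 and -1.58. Every PNFLX array lay above every control, by a narrow gap between control 4 and PNFLX 2. The signals behind these values were 98.0 to 125 in controls and 183 to 366 in PNFLX. Group means were -2.76 ± 0.22 and -1.71 ± 0.45 (SD, n = 4 each), a difference of 1.05 (SE 0.24, 95% interval 0.51 to 1.59), or 2.07-fold (1.42 to 3.01). By limma its p was 0.00199, rank 217 of 11600, and its adjusted p 0.107, so it did not pass the threshold. The median difference of its spot row was -0.01 and that of the tenth of probes of like brightness -0.05. It was higher under all 19 alternatives, from 0.38 with normexp to 1.35 without scaling, with adjusted p between 0.0349 and 0.647, and it passed without scaling and without PNFLX 2 (1.27, adjusted p = 0.0445 by limma). Most of the alternatives could not turn its sign. The filters, outlier spots, end rows, probe choice, deposited values and a block for replicate number left its difference at 1.05. Leaving out 1 sample cannot turn a difference between groups that do not overlap.

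The XM_343629 probe read -4.91, -4.95, -4.89 and -4.84 in controls. In PNFLX it read -5.35, -5.49, -3.99 and -5.74. PNFLX 3 was the highest of the 8 arrays and the other 3 PNFLX arrays were the lowest. Signals were 22.9 to 28.5 in controls and 17.4 to 54.8 in PNFLX, and the difference was -0.25 (SE 0.35, 95% interval -1.05 to 0.55, limma adjusted p = 0.790). Leaving out 1 PNFLX sample moved it from -0.63 without PNFLX 3 (limma adjusted p = 0.111) to -0.048 without PNFLX 4 (limma adjusted p = 0.968). The dimmest probe called well above background on PNFLX 3 read -4.77, against -6.60 to -5.49 on the other arrays, so low values on that array cannot be read as deeply as on the rest.

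Within each array, the AF321132 value exceeded the XM_343629 value by 2.06, 2.13, 1.96 and 2.40 in controls and by 4.01, 3.13, 2.43 and 4.16 in PNFLX. The lowest PNFLX gap, 2.43 on PNFLX 3, was just above the highest control gap. The gap was larger in PNFLX by 1.30 (2.14 ± 0.19 against 3.43 ± 0.81, SD, n = 4 each; exact two-sided permutation p = 0.0286, the smallest that 70 permutations allow, with 1 such pair among the deacetylases and sirtuins). After subtracting each array's row and column medians it was 0.69 (exact permutation p = 0.143). A gap of this size was seen in 6.28% of 749 pairs of probes with different sequences for 1 gene, whose median was 0.36, and in 6.94% of 1945 pairs of spots with identical sequence, whose median was 0.22.

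Hdac5 is the closest relative of Hdac4 and in neurons leaves the nucleus upon calcium signalling. Its probe (chr10:91291697-91291756, listed on plus) also runs opposite to its gene, while 63 of 63 neighbours are listed on their gene's strand. Whether the values of this probe are those of Hdac5 mRNA was not tested. It read -3.19, -3.41, -3.24 and -3.28 in controls and -3.68, -3.29, -3.26 and -3.87 in PNFLX. PNFLX 1 and PNFLX 4 lay below the controls and the other 2 among them, a difference of -0.24 (SE 0.17, 95% interval -0.63 to 0.15, limma adjusted p = 0.583). The Hdac5 difference has no settled sign, as it was 0.05 without scaling and 0.16 after row and column medians were subtracted. The Hdac5 and AF321132 probes share their orientation and their GenBank source. Whether these bear on either difference was not tested.

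Probes like these 2 were a small part of the array, where 95.6% of the 11382 probes compared were listed on their gene's strand. Of probes with at least 10 neighbours, of which at least 90% are listed on their gene's strand, 177 were themselves listed opposite to their gene. Of these 177, 76.8% were well above background on at least 4 arrays and 59.3% on all 8, against 76.8% and 65.1% of the 10886 probes listed on their gene's strand; these shares were not tested against each other. Their median level was lower (-4.0 against -2.90). Of the 136 opposite-listed probes tested 1 was called and 12.5% did not overlap between groups, against 55 called of 8357 and 10.7%.

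Hdac7, the class IIa enzyme known best from blood vessels and lymphocytes, had 1 probe (chr7:136577932-136577991). It read -0.70, -0.87, -0.67 and -0.46 in controls and -1.20, -0.50, -0.85 and -1.15 in PNFLX. PNFLX 1 and PNFLX 4 lay below every control and the other 2 within the control range. The difference of -0.25 (SE 0.19, 95% interval -0.68 to 0.18, limma adjusted p = 0.607) was smaller than the spread among the PNFLX arrays. Of 6 endothelial markers 5 were measured (Pecam1 was under the filter), of which 1 was higher and 4 lower, with a median of -0.13 and 0 called; their part in the Hdac7 value was not tested. In whole tissue, fewer cells of a type and less RNA per cell cannot be told apart.

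Hdac11, the class IV enzyme, is abundant in brain, oligodendrocytes included. Its probe (chr4:125580974-125581984) read -1.80, -2.10, -1.74 and -1.78 in controls and -1.83, -1.85, -1.81 and -2.36 in PNFLX. PNFLX 4 alone lay below the controls, and the other 3 PNFLX arrays lay close together within the control range. The difference was -0.11 (SE 0.17, 95% interval -0.50 to 0.28, limma adjusted p = 0.813) and 0.03 without PNFLX 4.

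Of the sirtuins, Sirt1 is the mainly nuclear NAD-dependent deacetylase of p53, FOXO factors and histones. Its probe, shown whole because it carries the other large difference, has no part in capitals:
Sirt1 probe: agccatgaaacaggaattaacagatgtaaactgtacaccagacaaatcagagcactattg

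The Sirt1 probe (spot row 159, chr20:25682000-25682059, listed on minus) is listed opposite to the gene's strand in GRCr8. Here 0 of 7 neighbouring probes within 0.5 Mb are listed on their gene's strand, and 6 of 14 within 2 Mb. The Sirt1 probe is thus listed like its nearest neighbours, unlike the AF321132 and Hdac5 probes. For Hdac1, Hdac2, Hdac3, Hdac7 and Sirt2 the listed strand was the gene's, and Hdac11 had no strand in the table.

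Sirt1 read -4.22, -4.79, -4.87 and -4.35 in controls 1 to 4. In PNFLX 1 to 4 it read -3.82, -3.88, -3.31 and -3.41. Every PNFLX array lay above every control, with signals of 26.1 to 38.0 in controls and 64.0 to 88.3 in PNFLX. Group means were -4.56 ± 0.32 and -3.60 ± 0.29 (SD, n = 4 each), a difference of 0.95 (SE 0.21, 95% interval 0.47 to 1.44), or 1.94-fold (1.38 to 2.71). By limma its p was 0.00180, rank 202 of 11600, and its adjusted p 0.103. A difference of this size or more, in either direction, was seen for 5.88% of all probes tested. The median difference of its spot row was 0.07 and that of the tenth of probes of like brightness -0.06.

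The Sirt1 value was higher under 18 of 19 alternatives, most of which, as for the AF321132 probe, could not turn its sign. Of those that could, it was 0.93 with quantile normalization and 0.86 after row and column medians were subtracted. It was 1.25 without scaling (limma adjusted p = 0.0212) and -0.44 with normexp background, near the median of all probes at that setting (-0.38). Over all 19 alternatives adjusted p ran from 0.0212 to 0.671.

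Sirt2 is a mainly cytoplasmic tubulin deacetylase that is most abundant in oligodendrocytes. Its probe (chr1:83968844-83968903) read 0.64, 1.07, 0.33 and 0.55 in controls and 1.03, 0.68, 0.52 and -0.10 in PNFLX. PNFLX 4 was the lowest array and control 2 the highest, and the groups overlapped otherwise. The difference was -0.12 (SE 0.26, 95% interval -0.71 to 0.48, limma adjusted p = 0.875) and 0.10 without PNFLX 4. The 6 oligodendrocyte markers were 6 of 6 lower, with a median of -0.28 and 0 called. Their mean was 2.89, 3.18, 2.78 and 3.09 in controls and 3.02, 2.90, 2.61 and 2.32 in PNFLX, so control 2 was the highest and PNFLX 4 the lowest, as for Sirt2. Their part in the Sirt2 value was not tested. PNFLX 4 was the lowest of the 8 arrays for 5 of the 10 probes and for 27.3% of all probes tested.

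**Figure D2:**
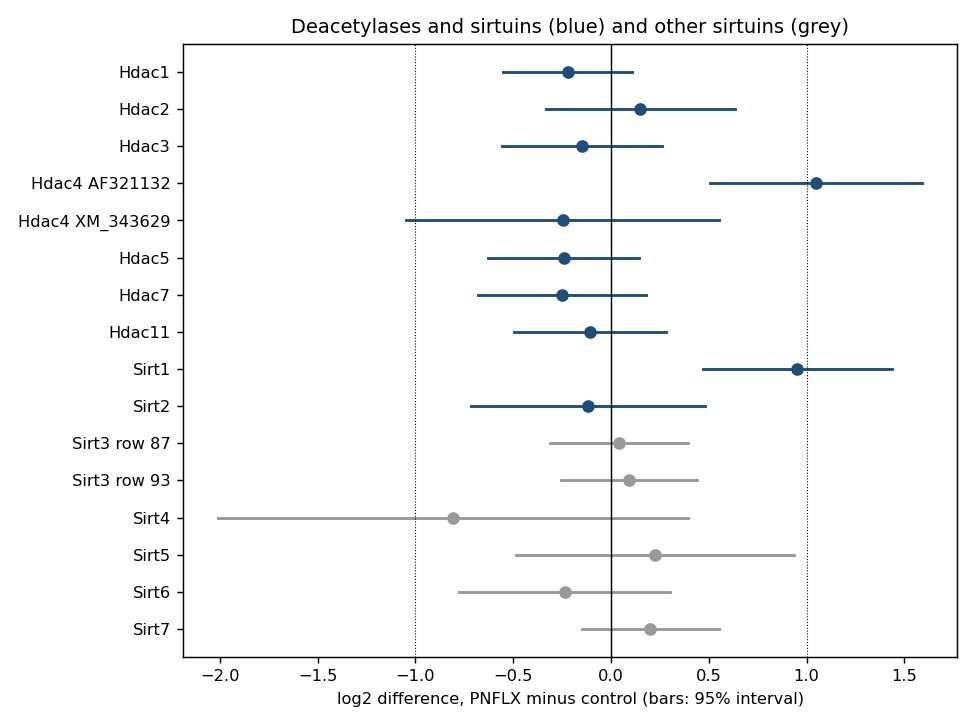
Log2 differences (PNFLX minus control) with 95% intervals for the 10 deacetylase and sirtuin probes in blue and for 6 probes of other sirtuins in grey, with dotted lines at a 2-fold change. The intervals of Hdac4 AF321132 (0.51 to 1.59) and Sirt1 (0.47 to 1.44) lie above 0, and 7 of the 10 blue intervals lie within the dotted lines.

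The plot of intervals shows what these 4 arrays per group could resolve. For 7 of the 10 probes the interval left out a 2-fold change in either direction, and for 3 of the 10 a 1.5-fold change. A p above the threshold therefore leaves room for smaller changes at most of these probes. The plot of settings follows the 2 Hdac4 probes, Sirt1 and Hdac1 through each alternative.

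**Figure D3:**
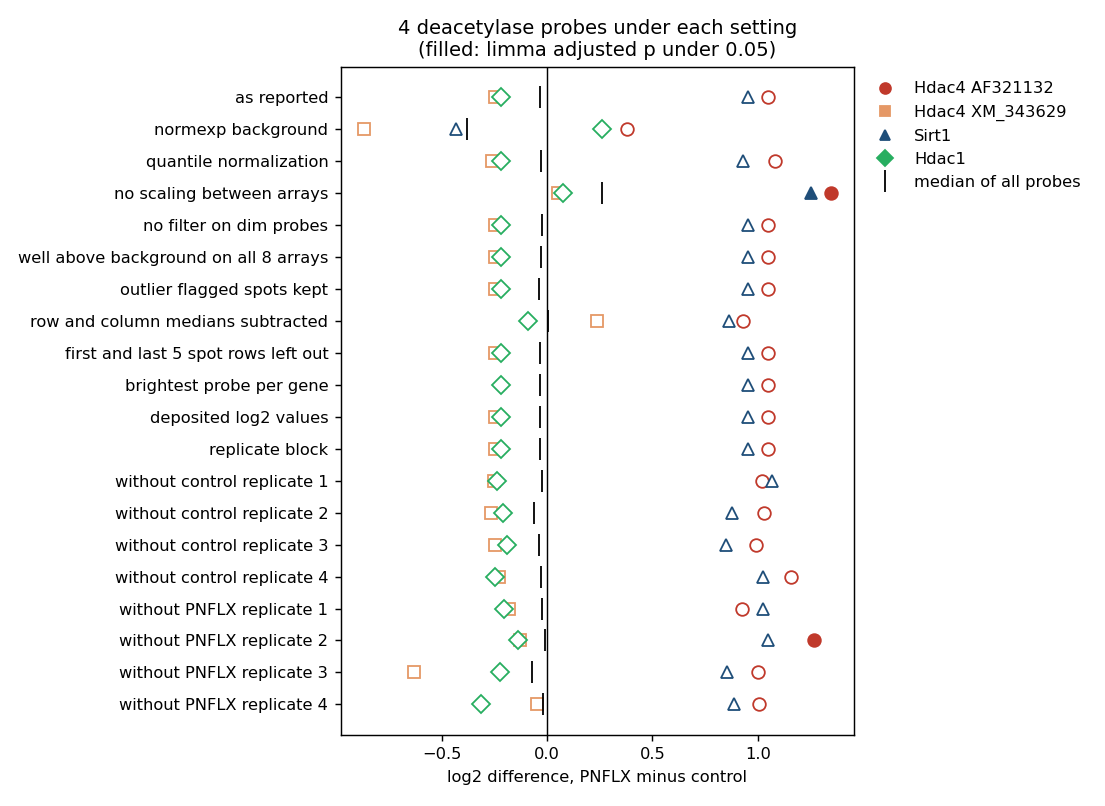
Log2 difference of 4 probes under the reported processing and each of 19 alternatives, with the median of all probes as a black tick and filled symbols where the limma adjusted p was under 0.05. Hdac4 AF321132 stays above 0 throughout (0.38 to 1.35), Sirt1 lies at -0.44 with normexp background, and filled symbols appear only without scaling (Hdac4 AF321132 and Sirt1) and without PNFLX 2 (Hdac4 AF321132).

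The other deacetylases with a probe were Sirt3 to Sirt7 (5 of 8 genes, with 6 probes; no probe was named Hdac8, Hdac9 or Hdac10), and 0 were called and 0 had an unadjusted p under 0.05. The mitochondrial Sirt3 had 2 spots of identical sequence, at 0.04 and 0.09 (SE 0.15 each), which differed on single arrays by 0.03 to 0.46 with a median of 0.10. Sirt4, also mitochondrial, read -1.88, -2.33, -2.24 and -1.93 in controls and -4.50, -2.49, -1.66 and -2.95 in PNFLX, a difference of -0.81 (SE 0.52) in spot row 188, one of the outermost rows. It was -0.27 without PNFLX 1 and -1.22 without PNFLX 3. Sirt5, a desuccinylase, differed by 0.22 (SE 0.31), the nuclear Sirt6 by -0.24 (SE 0.24) and the nucleolar Sirt7 by 0.20 (SE 0.15). By gene 3 were higher and 2 lower, and Sirt6 turned to 0.06 without scaling.

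The corepressor complexes that hold class I deacetylases had 17 of 29 genes measured, of which 0 were called, 6 were higher and 11 lower (median -0.04), and 11.8% had an unadjusted p under 0.05, near the 12.5% of all probes. Rbbp7, a histone chaperone of Sin3 and NuRD, read 0.32, 0.08, -0.29 and -0.02 in controls and 0.41, 0.56, 0.63 and 0.52 in PNFLX, without overlap (0.51, SE 0.16, limma adjusted p = 0.242). The NuRD scaffolds Mta2 and Mta1 differed by 0.49 (SE 0.19) and -0.51 (SE 0.25), and the Sin3 subunit Sap18 by -0.44 (SE 0.25). Without PNFLX 4, Mta1 was at -0.26 and Sap18 at -0.70. None of these genes was called, and whether a complex as a whole differs was not tested.

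The histone acetyltransferases, which add the marks that deacetylases remove, had 14 of 18 genes measured, with 7 higher, 7 lower, 0 called and a median of 0.03. Ncoa3, a steroid receptor coactivator, was 0.45 higher (SE 0.14, limma adjusted p = 0.242) at its brightest probe and 0.09 at another probe of different sequence. Ncoa2 was at -0.47 (SE 0.23), Kat5 (Tip60) at -0.24 (SE 0.15) with a second spot of the same sequence at -0.97, and Kat2b (PCAF) at 0.18 (SE 0.20) with other probes between -0.50 and 0.29. Acetyl-lysine readers, whose bromodomains bind acetylated histones, had 7 of 10 genes measured, with 2 higher, 5 lower, 0 called and a median of -0.12. Among them Brpf1 was at -0.33 (SE 0.16), Baz2a at -0.24 (SE 0.19), Brd7 at -0.19 (SE 0.25) and Baz2b at 0.24 (SE 0.31).

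Partners of the class IIa enzymes are the calcium-dependent and salt-inducible kinases that phosphorylate them, the YWHA adaptor proteins that hold the phosphorylated enzyme in the cytoplasm and the transcription factors they repress. Of 28 such genes 19 were measured, with 11 higher, 8 lower, 0 called and a median of 0.08. Srf, the serum response factor, read -2.11, -4.45, -3.10 and -2.56 in controls and -1.17, -1.75, -1.63 and -2.71 in PNFLX, a difference of 1.24 (SE 0.52, limma adjusted p = 0.380) with overlapping groups. The kinase Camk4 was at 0.30 (SE 0.20) and the adaptors Ywhag at 0.23 (SE 0.17) and Ywhaq at 0.22 (SE 0.13), while 4 other Ywhaq probes lay between -0.63 and 0.15.

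Sirtuin partners and genes of NAD metabolism had 12 of 19 genes measured, of which 4 were higher and 8 lower (median -0.09). An unadjusted p under 0.05 was seen for 8.33%, against 12.5% of all probes. Of the 12 genes 1 was called, against 0.672% of all probes tested. That gene was Ppargc1a, the coactivator PGC-1alpha that Sirt1 deacetylates. It read -5.75, -5.04, -6.09 and -6.58 in controls and -2.46, -3.23, -3.04 and -3.43 in PNFLX, a difference of 2.82 (SE 0.34, limma adjusted p = 0.0130). The probe was well above background on the 4 PNFLX arrays and on control 2 alone among the controls, so 3 control values give only an upper bound. It lay in spot row 2, one of the outermost rows, whose rows 1 to 5 had a median difference of 0.75. It was -0.02 with normexp, 1.53 and not called after row and column medians were subtracted, and not called without control 3 (2.75, limma adjusted p = 0.0521) or with the replicate number as a block (2.82, limma adjusted p = 0.0802). With the 5 outermost rows left out or with probes kept only if well above background on all 8 arrays, it was not among the probes tested. It met the filter mainly through the PNFLX arrays, where it was high, so its call is not read as a result about this list. Parp1, a large consumer of NAD, read 0.80 on control 1 and 3.39 to 4.31 on the other 7 arrays (1.19, SE 0.61). Nampt, the rate-limiting enzyme of NAD salvage, was at 0.28 (SE 0.19) and the nuclear receptor Ppara at -0.30 (SE 0.25).

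**Figure D4:**
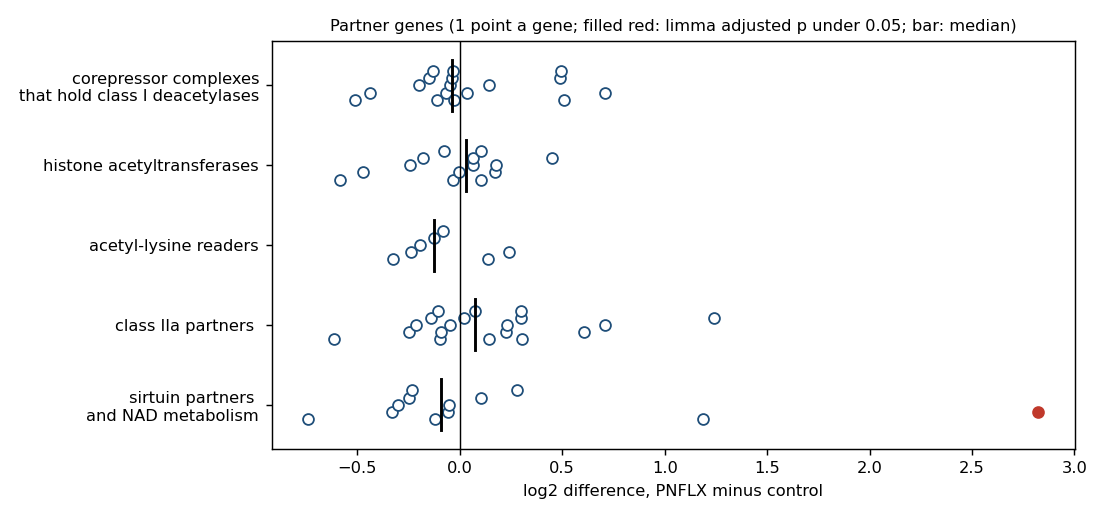
Log2 difference (PNFLX minus control) of each measured gene in 5 lists of partner genes, 1 point per gene at its brightest probe, with a bar at the list's median and filled red where the limma adjusted p was under 0.05. The medians lie between -0.12 and 0.08, and the 1 filled point is Ppargc1a, whose value rests on control spots that were well above background on control 2 alone.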

How the data were processed

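Cy3-labelled cRNA of total hippocampal RNA was read on single-colour arrays, per the labels' protocols. The deposited intensity values are processed signals of Agilent Feature Extraction 10.5.1.1, per the file headers, with detrending within but no normalization between arrays; probe positions are on rn4. The authors' deposited log2 table equals, within 0.00241, the values used here centred on each probe's median.

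Each array's processed signals were divided by their 75th percentile over 15207 probes and put on the log2 scale. Outlier spots (521) were left out, and 11600 probes, those well above background on 4 or more of the 8 arrays, were tested. The test was limma 3.58.1 under R 4.3.3 (Benjamini-Hochberg over all probes kept, threshold 0.05). On simulated data this fit called 6.85% of 1.5-fold, 38.2% of 2-fold and 79.7% of 4-fold changes, and 6 unchanged probes. SE is limma's moderated standard error. RefSeq (GRCr8) named 14530 probes (11863 genes) and gave gene strands; exons and UTRs were not used here.

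The genes named are every member probe, every probe of the other deacetylases and, of each further list, up to 4 genes of smallest p. One list gene is not reported here. A list gene with several probes counts at its brightest. Members and lists were chosen with earlier results of these data known. Alternatives covered background, scaling, filters, outliers, spot rows, probe choice, the deposited values, a replicate block and leaving out each sample.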

Additional observations from a re-analysis of the deposited data

Results flagged for a closer look

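In groups of 4 the highest or lowest sample was compared with the nearest other one, and a gap of more than 0.829 of the group's range was taken as far from the rest. Of 72 groups of named probes 7 passed, and chance flags about 1 in 20 groups. On PNFLX 4, Hdac11 (-2.36), Brpf1 (-0.72) and Baz2a (-4.56) were low and Sirt5 (2.51) and Kat2b (2.11) high. Among controls, Ywhag was high on control 1 (4.54) and Parp1 low on control 1 (0.80). PNFLX 4 thus accounts for 5 of the 7, in both directions.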

How the results depend on the processing

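Of the 10 probes, all kept their sign and stayed on their side of the threshold under quantile normalization, both filters, kept outlier spots, the deposited values, left-out end rows and the replicate block. Apart from quantile normalization, these settings leave the differences of the 10 probes as they were to within rounding. They could move only the p-values. Without scaling, 2 were called (Hdac4 AF321132 and Sirt1) and Hdac1 0.076, Hdac3 0.15, Hdac4 XM_343629 0.049, Hdac5 0.054, Hdac7 0.045, Hdac11 0.19, Sirt2 0.18, Sirt6 0.059, Kat5 0.055, Baz2a 0.060 and Brd7 0.10 turned higher. Normexp turned Hdac1 (0.26), Hdac2 (-0.74), Sirt1 (-0.44), Ncoa3 (-0.12), Kat5 (0.23), Baz2b (-0.12), Ppargc1a (-0.022) and Nampt (-0.040), with a median of -0.38 over all probes. Row and column subtraction turned Hdac4 XM_343629 (0.23), Hdac5 (0.16), Hdac11 (0.10), Sirt3 in row 87 (-0.020), Kat5 (0.21) and Ppara (0.10), and left the Hdac4 gap at 0.69. The cause was not tested.

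Over all probes 78 were called (43 higher, 35 lower). The count was 50 with normexp (14 higher, 36 lower), 143 without scaling (120 higher, 23 lower), 46 without the filter, 47 with the filter on all 8 arrays, 24 after row and column subtraction, 47 with the brightest probe per gene and 13 with the replicate block. Without the first and last 5 spot rows 11056 probes were tested and limma called 0, while 1261 had an unadjusted p under 0.05.

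Leaving out 1 sample gave 33 to 104 calls over all probes, 0 to 1 among the 10 probes and a Hdac4 gap of 1.05 to 1.63 (exact permutation p 0.0286 to 0.0571, the latter without any 1 control). Signs turned for Hdac3 (-0.26 to 0.0033), Hdac11 (-0.19 to 0.026), Sirt2 (-0.28 to 0.095), both Sirt3 spots (-0.030 to 0.13 and -0.023 to 0.16), Sirt5 (-0.027 to 0.44), Kat2b (-0.017 to 0.25) and Baz2b (-0.079 to 0.41). Same-numbered samples correlated at 0.01 to 0.09 in their deviations, and 3 of 4 correlated best with their own number, a hint from the data only; no correlation was over 0.1, so the numbers were not taken to pair the samples. With the replicate block Ppargc1a was no longer called (limma adjusted p = 0.0802), and Hdac4 AF321132 had a limma adjusted p of 0.250 and Sirt1 of 0.278. Signals under 100 limit what Hdac2, Hdac5, Sirt1 and Hdac4 XM_343629 can show, and Hdac4 AF321132 was also under 100 on control 1 (98.0).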
